A study of Schizosaccharomyces pombe with 24 samples.

Results

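The abundant lncRNAs of wild-type fission yeast are long noncoding RNAs that already take a sizeable number of reads in unmutated, growing Schizosaccharomyces pombe cells. They were selected on a measured value: an identifier of the SPNCRNA class (the annotation's prefix for noncoding RNA genes) was kept if its mean over the 3 wild-type (WT) libraries was at least 10 CPM (a gene's count over all counts of its library, times 1000000). Of 1527 such identifiers in a table of 6988 genes, 227 reached that level. The rule names 19 lncRNAs to leave out, 4 of which were at the level, so 223 remained. WT values therefore chose the members, and their WT levels are given as a description only. The lncRNAs just inside the limit were SPNCRNA.1080 at 10.1 CPM, SPNCRNA.873 at 10.05 CPM and SPNCRNA.648 at 10.02 CPM in WT, and those just outside it were SPNCRNA.1082 at 9.85 CPM, SPNCRNA.1524 at 9.82 CPM and SPNCRNA.695 at 9.81 CPM.

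Most fission yeast lncRNAs are made by RNA polymerase II and, like mRNAs, are cut and polyadenylated at their 3′ ends by the cleavage and polyadenylation factor. The same complex signals transcription to stop, and where a noncoding transcript ends can decide whether it runs over a neighbouring gene. Many such transcripts are then degraded in the nucleus by the exosome and its cofactors. Some are known to act in cis on a neighbouring gene, some form RNA foci on chromosomes, and a few are structured RNAs that form the core of an enzyme, such as the RNA of RNase P.

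PolyA+ RNA was sequenced from haploid log-phase cultures grown in rich YES medium at 30 °C, with 3 biological replicates in each of 8 groups. The mutants each carry an amino acid change in a subunit of the cleavage and polyadenylation machinery. The mutants msi2-G252E (an RNA-binding protein), pfs2-E104A and pfs2-V180F (a WD repeat scaffold subunit), pta1-T524M (a scaffold subunit) and ysh1-L74F (the endonuclease) are h- strains that also carry asp1-WT::kanMX, a drug-resistance marker beside a wild-type asp1. The mutant pla1-Y86L (the poly(A) polymerase) is h- with kanMX at pla1, and cft1-L249Q (a scaffold subunit) is h+ with no marker named. The WT control is h- and carries neither marker. By the title of the series, the mutations were found as genetic suppressors of transcription termination that occurs too early.

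Libraries held between 19368216 and 29297880 counts, those of WT between 25300151 and 28105939, so that 10 CPM stood for at least 194 reads. Replicates varied by 4.90% (common biological coefficient of variation of the fit). The mating type labels were checked with mfm2, an M-factor pheromone gene of h- cells, whose mean was 1.94 CPM in cft1-L249Q (labelled h+), between 11.5 and 39.7 CPM in the h- mutants and 42.3 CPM in WT (h-). The other 7 markers gave no such separation. Among genes of M cells, mfm1, mam1 and mam2 were lower in cft1-L249Q than in WT and mfm3 was higher (1.29 CPM in cft1-L249Q, 0.772 CPM in WT). Among genes of P cells, map1 was lower (7.41 CPM in cft1-L249Q, 9.97 CPM in WT), while map2 (6.64 and 6.37 CPM) and map3 (13.2 and 12.4 CPM) were close. The pla1 mRNA was lower in pla1-Y86L than in WT, at a log2 fold change of -2.08 ± 0.04, so the amino acid change, the marker and the lower pla1 mRNA cannot be told apart in that strain. Likewise, the asp1 marker cannot be told apart from the mutation in the strains that carry it. Libraries selected for poly(A) tails do not separate an RNA's level from the share of it that is polyadenylated, and fewer cells of a kind cannot be told apart from less RNA per cell.

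In WT the lncRNAs were very unevenly read. Their median was 16.6 CPM, with 144 of the 223 between 10 and 20 CPM, 68 between 20 and 50 CPM, 11 at 50 CPM or more and 4 of these at 100 CPM or more. SPNCRNA.53 (prl53, a poly(A)-bearing RNA of no assigned role) stood at 2541 CPM and held 34.2% of the reads of all 223. The next was SPNCRNA.1626 at 277.0 CPM, followed by rse1 at 114 CPM, SPNCRNA.863 at 103.6 CPM and SPNCRNA.1096 at 86.5 CPM. The 12 highest together held 47.6%, and the 223 held 70.6% of all WT reads assigned to SPNCRNA identifiers. CPM is not corrected for transcript length, so this order is one of reads and not of molecules.

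**Figure D1:**
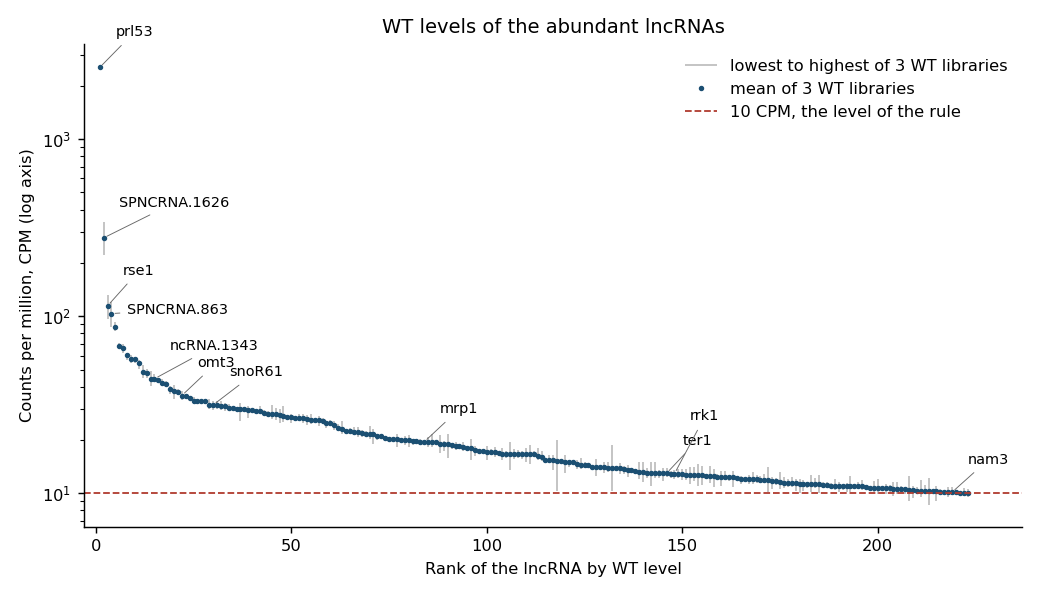
WT level of each of the 223 abundant lncRNAs, in CPM on a log axis, ordered by rank; points are means of 3 WT libraries and grey bars run from the lowest to the highest library. prl53 (SPNCRNA.53) stands far above the rest at 2541 CPM, the next is at 277.0 CPM, and most lie between the dashed limit of 10 CPM and 20 CPM.

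Most of these lncRNAs lie over protein-coding genes. Of the 223, 222 were found in the reference annotation, where 156 overlap a coding gene only in antisense, 18 overlap coding genes on both strands, 6 overlap 1 on the same strand only and 42 overlap none. The annotation marks 34 of them as perhaps being an alternative UTR, a stretch of an mRNA outside its coding sequence. Structured RNAs or their precursors account for 5: rrk1 (the RNA of RNase P, which trims the 5′ ends of tRNAs), mrp1 (the RNA of RNase MRP, which cuts ribosomal RNA precursors), ter1 (the telomerase RNA), snoR61 (a small nucleolar RNA) and SPNCRNA.1483 (a small nucleolar RNA primary transcript). A further 4 carry names from studies of regulation or of RNA foci: rse1, omt3, ncRNA.1343 and nam3. For lncRNAs that overlap a coding gene the assignment of reads is uncertain, since no source used here gives the strand setting of the counting.

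Together the 223 lncRNAs took 0.940 ± 0.027% of all counts in msi2-G252E, 0.898 ± 0.030% in pfs2-V180F, 0.894 ± 0.079% in cft1-L249Q, 0.887 ± 0.035% in ysh1-L74F and 0.784 ± 0.006% in pfs2-E104A, against 0.742 ± 0.018% in WT (SD, n = 3 each). The share was 0.726 ± 0.036% in pla1-Y86L and 0.672 ± 0.022% in pta1-T524M, against the same WT value. In 5 mutants every library lay above every WT library, in pta1-T524M every library lay below, and the libraries of pla1-Y86L overlapped those of WT. No test is given for these shares, since the WT libraries chose the lncRNAs. Leaving out prl53, the share was 0.488 ± 0.015% in WT. It was 0.637 ± 0.010% in msi2-G252E, 0.588% in pfs2-V180F, 0.571% in cft1-L249Q, 0.557% in ysh1-L74F and 0.537% in pfs2-E104A. In pla1-Y86L it was 0.463%, with every library (0.453% to 0.471%) below every WT library (0.472% to 0.503%), and in pta1-T524M 0.456%. prl53 alone took 0.254 ± 0.005% in WT and 0.303 ± 0.019% in msi2-G252E. It took 0.331% in ysh1-L74F, 0.323% in cft1-L249Q, 0.310% in pfs2-V180F, 0.263% in pla1-Y86L, 0.247% in pfs2-E104A and 0.216% in pta1-T524M. Shares of this kind depend on the rest of the transcriptome as well as on the lncRNAs.

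**Figure D2:**
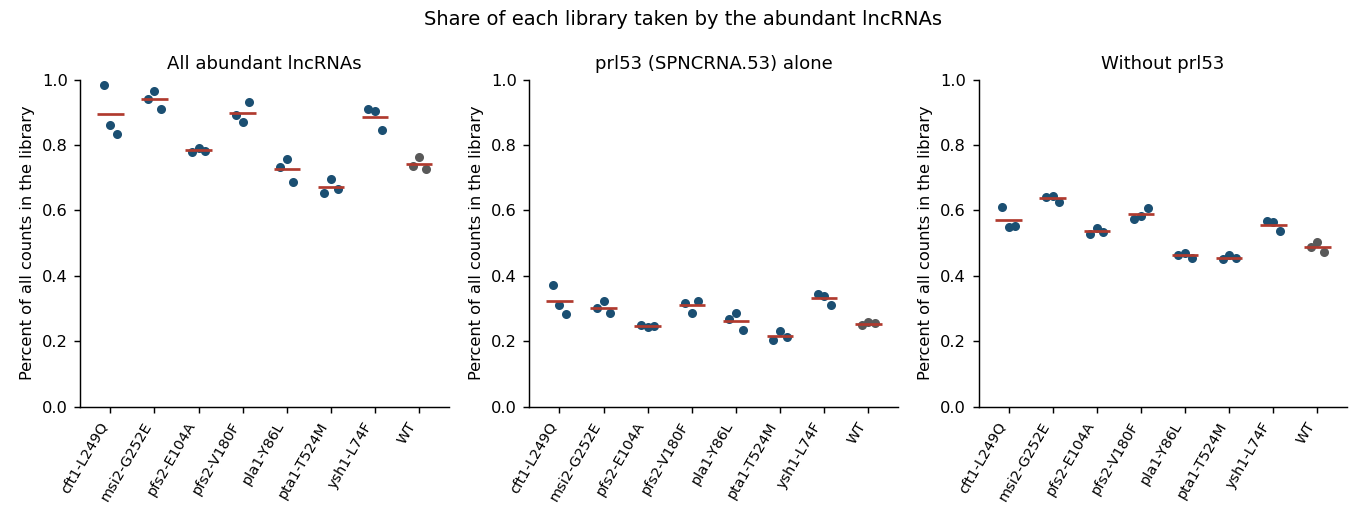
Percent of all counts in a library taken by the abundant lncRNAs as a whole, by prl53 (SPNCRNA.53) alone and by the others; each point is 1 library, red bars are means of 3, and WT is at the right. The summed share is highest in msi2-G252E at 0.940% and lowest in pta1-T524M at 0.672%, with WT at 0.742%.

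Each mutant was then compared with WT gene by gene, with calls made where the adjusted p was below 0.05. The WT libraries in these comparisons are the ones that chose the lncRNAs, and all 7 comparisons share them. In msi2-G252E 99 of the 223 were higher and 44 lower, where 29.3% and 29.5% of all 6287 genes tested were higher and lower. In pfs2-V180F 90 were higher and 43 lower, where 24.1% and 24% of all genes were. In cft1-L249Q the counts were 59 higher and 55 lower (22.3% and 21% of all genes), in pfs2-E104A 54 and 46 (18.1% and 16.1%) and in ysh1-L74F 45 and 10 (7.57% and 6.84%). The balance lay the other way in pla1-Y86L, with 56 higher and 92 lower (32.2% and 32.4% of all genes), and in pta1-T524M, with 40 higher and 83 lower (18.7% and 19.8%). As shares of the 223, higher calls made up 44.4% in msi2-G252E, 40.4% in pfs2-V180F and 20.2% in ysh1-L74F, and lower calls made up 41.3% in pla1-Y86L and 37.2% in pta1-T524M.

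The less abundant lncRNAs are given beside them as a description. Of 1304 other SPNCRNA genes 967 passed the filter on low counts, and one that is low in WT could pass only through a mutant in which it is high. Of the 967, 397 were higher and 128 lower in pla1-Y86L, and 368 were higher and 118 lower in msi2-G252E. The median log2 fold change against WT in pla1-Y86L was -0.09 over the abundant lncRNAs, 0.32 over the other lncRNAs and 0.00 over all genes. The abundant and the other lncRNAs had medians of 0.14 and 0.26 in msi2-G252E, 0.08 and 0.10 in ysh1-L74F, 0.02 and 0.04 in cft1-L249Q, 0.12 and 0.10 in pfs2-V180F, 0.01 and -0.06 in pfs2-E104A, and -0.09 and -0.13 in pta1-T524M. All of these values use the WT libraries by which the lncRNAs were split, and neither the part of that choice nor the difference between the classes was tested.

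The shifts of the bulk were small. Changes of 2-fold or more were called upward in 11 and downward in 5 of the 223 in msi2-G252E (4.39% and 1.62% of all genes), 8 and 1 in pfs2-V180F (2.47% and 0.891%), 5 and 2 in cft1-L249Q (1.67% and 0.891%), 3 and 1 in pfs2-E104A (0.732% and 0.716%), 3 and 11 in pla1-Y86L (4.85% and 2.04%), 0 and 4 in pta1-T524M (1.22% and 0.954%) and 1 and 0 in ysh1-L74F (0.27% and 0.143%). The scaling of library sizes bears on the direction of such small shifts. Scaled by total counts alone, the median of all genes moved to 0.13 in cft1-L249Q and 0.17 in msi2-G252E, and the higher and lower counts of abundant lncRNAs became 141 and 30 in msi2-G252E, 98 and 29 in cft1-L249Q, 98 and 28 in pfs2-V180F, 80 and 4 in ysh1-L74F, 61 and 31 in pfs2-E104A and 64 and 69 in pla1-Y86L. The share of all genes called under that scaling is not given here, so these counts stand without a background. Relative to the median of all genes under that scaling, the median of the abundant lncRNAs stood at 0.02 in cft1-L249Q, 0.13 in msi2-G252E and -0.09 in pla1-Y86L. Single libraries also counted: the share called higher in ysh1-L74F was 12.1% without its replicate 1 and 13.0% without its replicate 2, its share called lower was 2.24% without its replicate 1 or WT replicate 1 or 2 and 2.69% without its replicate 2, and the share called lower in pfs2-V180F was 12.1% without its replicate 2 and 12.6% without WT replicate 2.

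**Figure D3:**
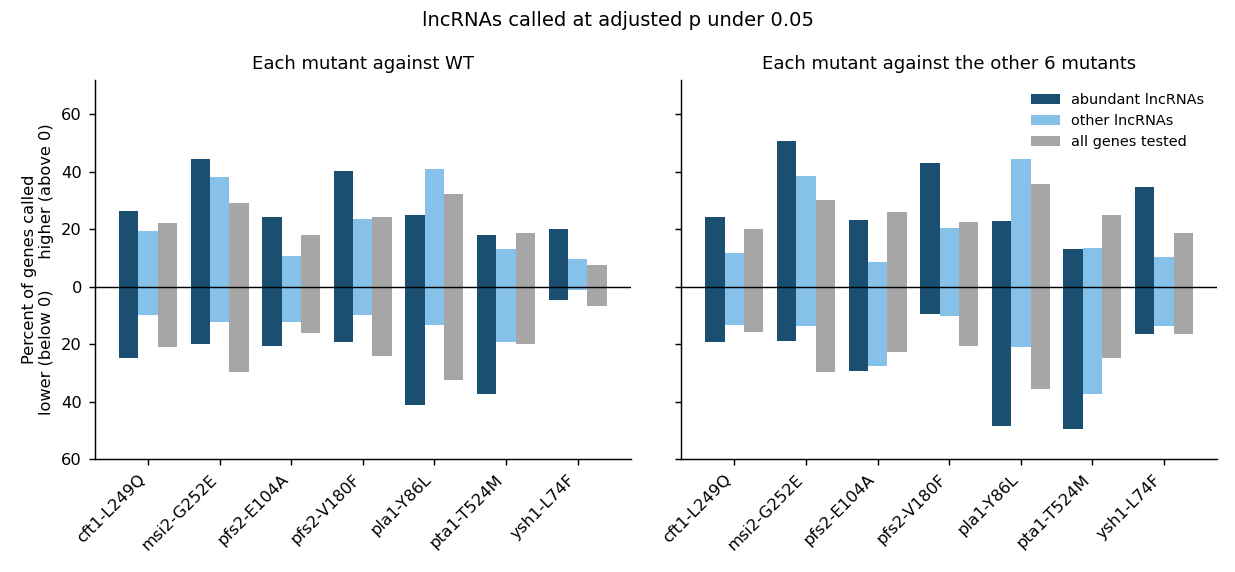
Percent of the abundant lncRNAs, of the other lncRNAs tested and of all genes tested that were called higher (above 0) or lower (below 0), for each mutant against WT (left) and set against the other 6 mutants by their mean (right). Against WT, higher calls among the abundant lncRNAs reach 44.4% in msi2-G252E and lower calls reach 41.3% in pla1-Y86L.

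Contrasts among the mutants leave out the WT means by which the lncRNAs were chosen, although the WT libraries still enter the filter, the scaling and the estimate of spread. Tested over the 7 mutants together, 213 of the 223 (95.5%) differed in level between mutants, where 93.8% of all genes did, so the share was close to the background. The range between the highest and the lowest mutant had a median of 0.69 on the log2 scale, and 46 lncRNAs had a range of at least 1. Set against the mean of the other 6 mutants, 113 were higher and 42 lower in msi2-G252E (30.1% and 29.7% of all genes), 96 and 21 in pfs2-V180F (22.4% and 20.6%), and 77 and 37 in ysh1-L74F (18.6% and 16.4%). In pta1-T524M 29 were higher and 110 lower (25.1% and 24.8% of all genes), and in pla1-Y86L 51 were higher and 108 lower (35.8% and 35.6%). The counts were closer together in cft1-L249Q, with 54 higher and 43 lower (20.1% and 15.7%), and in pfs2-E104A, with 52 and 65 (25.9% and 22.8%). In the same contrast the other 967 lncRNAs had 430 higher and 202 lower in pla1-Y86L, and the median was -0.13 over the abundant and 0.22 over the other lncRNAs. Here too, another lncRNA that is low in WT could pass the filter on low counts only through a mutant in which it is high. Neither the part of that filter nor the difference between these classes was tested. These contrasts share libraries with each other, since each mutant stands in the mean that the others are set against.

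The widest range among the mutants was that of omt3 (SPNCRNA.130), at 5.29 on the log2 scale. In meiotic cells the omt3 RNA collects at its own locus with 3′ end processing and termination factors and helps homologous chromosomes to pair. It is annotated between mei2, which encodes the RNA-binding regulator of meiosis, and omt2, and it overlaps no coding gene. It had 0.925, 0.912 and 0.641 CPM in pla1-Y86L, 9.13, 11.6 and 11.96 CPM in msi2-G252E, 18.3, 19.2 and 14.95 CPM in pta1-T524M and 19.1, 20.8 and 23.5 CPM in ysh1-L74F, against 38.02, 35.1 and 33.9 CPM in WT. All libraries of these 4 mutants lay below all WT libraries, and those of pla1-Y86L, with 64 reads in all, lay below every other library. The RNA fell by 5.51 ± 0.33 (log2, SE) in pla1-Y86L (adjusted p = 1.6e-12), by 1.88 ± 0.21 in msi2-G252E (1e-07), by 1.07 ± 0.20 in pta1-T524M (0.0002) and by 0.84 ± 0.19 in ysh1-L74F (0.0065). Against the other mutants the log2 fold change was -4.73 ± 0.31 in pla1-Y86L (adjusted p = 4.9e-12). No call was made in cft1-L249Q (-0.24 ± 0.19), in pfs2-E104A (-0.44 ± 0.19) or in pfs2-V180F (-0.22 ± 0.19), where replicate 1 stood at 48.6 CPM and the others at 24.03 and 23.1 CPM. The neighbouring mei2 mRNA was lower and called in pla1-Y86L (-3.95 ± 0.18), msi2-G252E (-1.87 ± 0.15) and ysh1-L74F (-0.74 ± 0.13), where omt3 fell, but also in pfs2-V180F (-0.95 ± 0.14), cft1-L249Q (-0.51 ± 0.13) and pfs2-E104A (-0.48 ± 0.13), where omt3 was not called. In pta1-T524M, where omt3 fell, mei2 stood at -0.08 ± 0.13 (adjusted p = 0.65). On the other side omt2 stood at -0.21 ± 0.07 in pla1-Y86L (adjusted p = 0.0074) and 0.07 ± 0.07 in msi2-G252E (adjusted p = 0.41).

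rse1 (SPNCRNA.111), which represses its neighbour ste11 in cis (ste11 encodes the transcription factor that starts sexual differentiation), was lower in most mutants. It had 67.7, 67.6 and 61.98 CPM in msi2-G252E and 80.7, 76.1 and 66.04 CPM in pla1-Y86L, against 115, 131 and 96.7 CPM in WT. The libraries of both mutants lay below those of WT. The log2 fold change was -0.97 ± 0.09 in msi2-G252E (adjusted p = 2.6e-09), -0.70 ± 0.09 in pla1-Y86L (2.7e-07), -0.64 ± 0.09 in pta1-T524M, -0.55 ± 0.09 in pfs2-E104A, -0.42 ± 0.09 in cft1-L249Q and -0.30 ± 0.09 in pfs2-V180F, all called. In ysh1-L74F it was -0.20 ± 0.08 and not called. The call in pfs2-V180F was lost without WT replicate 2 (-0.19). The ste11 mRNA was lower than in WT in every mutant, at -1.62 ± 0.20 in msi2-G252E, -1.49 ± 0.19 in pla1-Y86L, -0.85 ± 0.19 in cft1-L249Q, -0.73 ± 0.18 in pta1-T524M, -0.59 ± 0.18 in pfs2-V180F, -0.49 ± 0.18 in pfs2-E104A and -0.59 ± 0.18 in ysh1-L74F, all called. Whether rse1 had a part in the ste11 levels was not tested.

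ncRNA.1343 (SPNCRNA.1343) starts from the same region as nc-tgp1, the lncRNA that represses the transporter gene tgp1, and runs the other way. The annotation calls it non-functional. It had 33.5, 33.03 and 32.8 CPM in msi2-G252E and 35.00, 29.3 and 36.9 CPM in pfs2-E104A, against 47.2, 43.05 and 42.9 CPM in WT, and no library of these mutants reached the WT range. It fell by 0.59 ± 0.07 in msi2-G252E (adjusted p = 1.2e-07) and by 0.43 ± 0.07 in pfs2-E104A (5.2e-05). In cft1-L249Q (-0.25 ± 0.07) and ysh1-L74F (-0.27 ± 0.07) the calls were lost when scaled by total counts alone (-0.12 and -0.18), and in ysh1-L74F also without its replicate 1 (-0.21) or WT replicate 1 (-0.22). In pla1-Y86L, where nc-tgp1 was higher by 1.58 ± 0.07, ncRNA.1343 stood at -0.13 ± 0.07 and was not called.

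nam3 (SPNCRNA.1696), named as a noncoding RNA associated with Mmi1, the protein that marks meiotic transcripts for destruction in growing cells, was near the limit of the rule in WT and higher in the mutants. It had 48.3, 46.6 and 49.5 CPM in pfs2-V180F, 44.5, 46.9 and 40.3 CPM in msi2-G252E, 36.2, 30.9 and 29.7 CPM in cft1-L249Q and 21.7, 25.02 and 18.4 CPM in ysh1-L74F, against 9.88, 10.8 and 9.75 CPM in WT. Its libraries in all 7 mutants lay above those of WT, the lowest being 12.7 CPM in pta1-T524M. nam3 rose by 2.20 ± 0.11 (log2, SE) in pfs2-V180F (adjusted p = 1.6e-13), 1.94 ± 0.11 in msi2-G252E (5.4e-13), 1.54 ± 0.11 in cft1-L249Q (2.2e-10), 1.01 ± 0.11 in ysh1-L74F (3.8e-06), 0.72 ± 0.12 in pfs2-E104A and 0.62 ± 0.11 in pla1-Y86L. The smallest value, 0.38 ± 0.12 in pta1-T524M (adjusted p = 0.013), was not called without replicate 1 of the mutant (0.30).

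Of the 5 structured RNAs, 4 were lower in pta1-T524M, 3 in pfs2-E104A and 2 in cft1-L249Q with none higher (19.8%, 16.1% and 21% of all genes were lower). In msi2-G252E and ysh1-L74F 1 was lower and none higher (29.5% and 6.84% of all genes were lower). In pla1-Y86L 2 were higher and 2 lower (32.2% and 32.4% of all genes), and so too in pfs2-V180F (24.1% and 24%). The 5 RNAs are few, so the counts are a description only. In polyA+ libraries their counts come from polyadenylated forms, such as precursors, and say little of the mature RNA. rrk1 (SPNCRNA.128) had 5.51, 5.82 and 4.11 CPM in cft1-L249Q, 4.33, 6.08 and 5.06 CPM in pla1-Y86L, 5.50, 5.77 and 7.02 CPM in pfs2-V180F and 6.41, 8.11 and 7.30 CPM in msi2-G252E, against 11.98, 13.1 and 13.6 CPM in WT. No mutant library of rrk1, the highest being 9.86 CPM in pfs2-E104A, reached the lowest WT library. rrk1 fell by 1.46 ± 0.14 in cft1-L249Q (adjusted p = 3.1e-08), by 1.41 ± 0.14 in pla1-Y86L (1.1e-08), by 1.12 ± 0.14 in pfs2-V180F (5.9e-07), by 1.00 ± 0.13 in msi2-G252E, by 0.95 ± 0.13 in pta1-T524M, by 0.88 ± 0.13 in ysh1-L74F and by 0.60 ± 0.13 in pfs2-E104A, all called. It is annotated antisense to pre10, which encodes a proteasome subunit and stood between -0.17 and 0.09 in the 7 comparisons. The pre10 mRNA was called lower in msi2-G252E (-0.17 ± 0.03) and pla1-Y86L (-0.16 ± 0.03), higher in cft1-L249Q (0.09 ± 0.03), and in no other mutant.

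Another RNase RNA, mrp1 (SPNCRNA.82), was at 10.7, 9.20 and 13.5 CPM in pta1-T524M and 15.6, 16.9 and 15.9 CPM in pla1-Y86L, against 19.8, 19.9 and 18.96 CPM in WT. It fell by 0.84 ± 0.11 in pta1-T524M (adjusted p = 1.8e-06) and by 0.35 ± 0.10 in pla1-Y86L (0.0051). The small nucleolar RNA precursor SPNCRNA.1483 fell in pta1-T524M as well, by 0.71 ± 0.10 (9e-06), with 9.95, 9.49 and 11.3 CPM against 15.6, 15.4 and 17.97 CPM in WT. Neither RNA overlaps a coding gene. Both had higher calls in pfs2-V180F that rested on single libraries: mrp1, at 0.30 ± 0.10, was not called without WT replicate 3 (0.28) or replicate 1 of the mutant (0.23), and SPNCRNA.1483, at 0.26 ± 0.10, was not called without WT replicate 1 (0.24) or 2 (0.22) or replicate 1 of the mutant (0.20).

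In pla1-Y86L snoR61 (SPNCRNA.445) and ter1 (SPNCRNA.214) were higher. snoR61 had 49.3, 54.6 and 42.3 CPM in pla1-Y86L, against 31.9, 33.3 and 29.5 CPM in WT, with every mutant library above WT, and rose by 0.55 ± 0.11 (adjusted p = 0.0002). ter1, whose polyadenylated precursor is cut by the spliceosome to give the mature telomerase RNA, had 15.2, 15.4 and 18.01 CPM in pla1-Y86L, against 12.8, 12.4 and 13.8 CPM in WT. Its log2 fold change of 0.25 ± 0.09 there (adjusted p = 0.019) was not called without its replicate 3 (0.15) or WT replicate 2 (0.21). In other mutants ter1 fell, by 0.47 ± 0.09 in cft1-L249Q (0.00034), by 0.50 ± 0.09 in pfs2-V180F (0.00014), by 0.44 ± 0.09 in pta1-T524M (0.0008) and by 0.37 ± 0.10 in pfs2-E104A (0.0046). Set against the other mutants, ter1 stood at 0.58 ± 0.07 in pla1-Y86L (6.5e-08) and snoR61 at 0.76 ± 0.08 (2.9e-08). snoR61 was also called lower in pfs2-E104A (-0.39 ± 0.12), a call lost without replicate 2 of that mutant (-0.27).

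**Figure D4:**
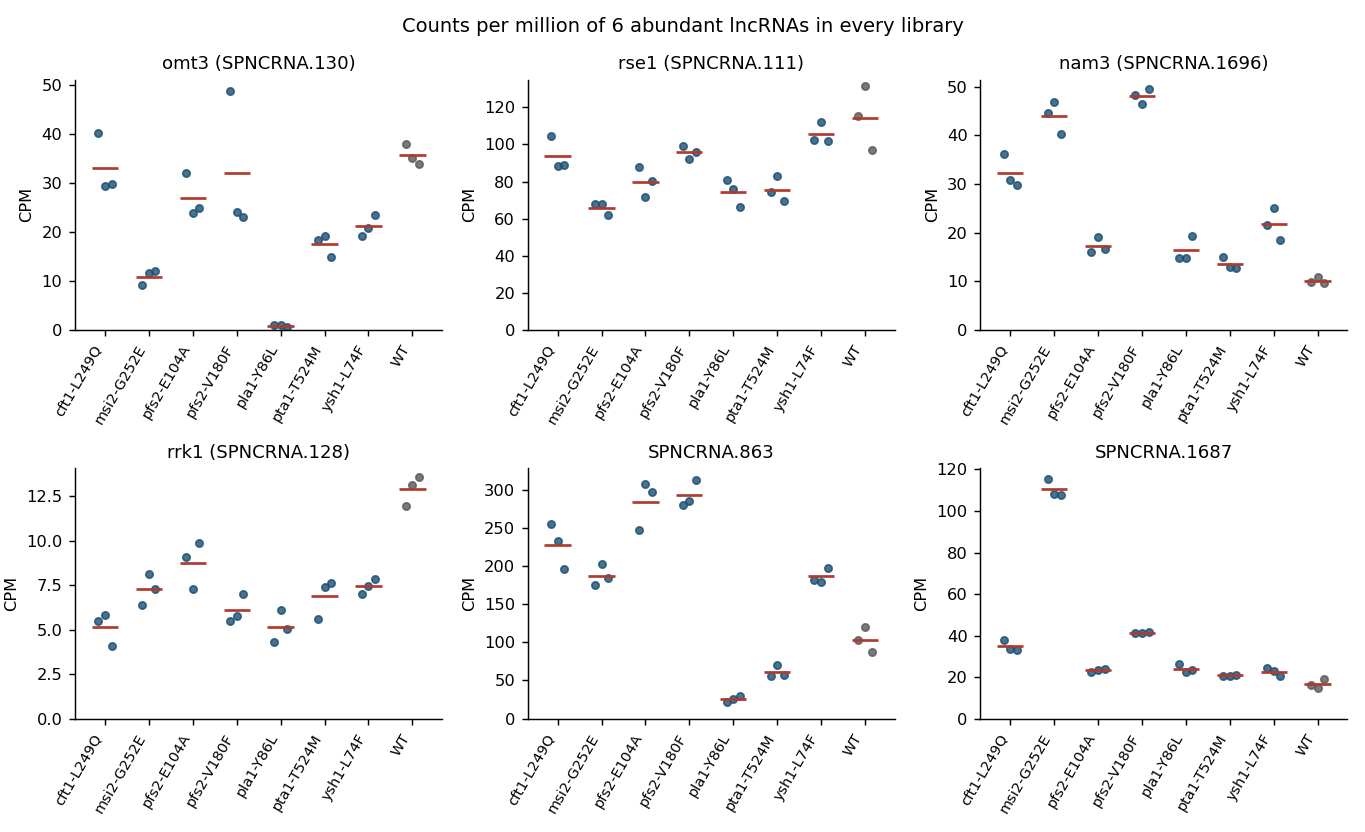
CPM of omt3, rse1, nam3, rrk1, SPNCRNA.863 and SPNCRNA.1687 in every library; each point is 1 library, red bars are means of 3, and WT is the rightmost group of each panel. omt3 is nearly lost in pla1-Y86L, every mutant library of nam3 lies above WT, every mutant library of rrk1 lies below WT, and SPNCRNA.863 lies below WT in pla1-Y86L and pta1-T524M and above it in the other mutants.

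prl53, which dominates the reads and overlaps SPAC27E2.11c on the same strand, changed little. It had 3436, 3393 and 3096 CPM in ysh1-L74F, 3185, 2877 and 3245 CPM in pfs2-V180F and 2024, 2320.1 and 2123 CPM in pta1-T524M, against 2487, 2591 and 2544 CPM in WT. The libraries of ysh1-L74F and pfs2-V180F lay above WT and those of pta1-T524M below it. The log2 fold change was 0.29 ± 0.07 in ysh1-L74F (adjusted p = 0.007), 0.24 ± 0.07 in pfs2-V180F (0.0058) and -0.27 ± 0.07 in pta1-T524M (0.0034). A value of 0.21 ± 0.07 in cft1-L249Q was not called without its replicate 1 (0.14) or WT replicate 1 (0.20). The other values lay between -0.08 and 0.08, and none was called. prl58 (SPNCRNA.58), another poly(A)-bearing RNA, stood between -0.35 and 0.24, with 4 calls, all lower. Each was lost without WT replicate 2, at -0.22 in pfs2-V180F, -0.20 in pta1-T524M, -0.20 in pfs2-E104A and -0.17 in cft1-L249Q.

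SPNCRNA.1626, the second in reads, fell in pla1-Y86L. It had 113, 129 and 158 CPM there, against 268, 342 and 221 CPM in WT, so all mutant libraries lay below WT. The log2 fold change was -1.13 ± 0.14 (adjusted p = 3.6e-07), and against the other mutants -1.29 ± 0.12 (1.6e-09). In the other 6 mutants it lay between -0.26 and 0.32 and was not called. It is annotated antisense to SPBP8B7.32 and to mbx2, the gene of a MADS-box transcription factor of flocculation, whose mRNA stood at -0.11 ± 0.07 in pla1-Y86L (adjusted p = 0.13). SPBP8B7.32 stood at -0.14 ± 0.07 there (0.082).

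SPNCRNA.863 and SPNCRNA.724 moved in opposite directions in different mutants. SPNCRNA.863, the fourth in reads, overlaps no coding gene. It had 279.9, 285 and 313 CPM in pfs2-V180F, 247, 308 and 297 CPM in pfs2-E104A, 55.4, 70.8 and 57.7 CPM in pta1-T524M and 22.02, 25.2 and 29.2 CPM in pla1-Y86L, against 103, 120.5 and 86.8 CPM in WT. The pfs2 libraries all lay above WT and the pta1-T524M and pla1-Y86L libraries all below. It rose by 1.46 ± 0.11 in pfs2-V180F (adjusted p = 6e-10), 1.41 ± 0.11 in pfs2-E104A (4.3e-09), 1.01 ± 0.11 in cft1-L249Q (2.5e-07), 0.77 ± 0.11 in ysh1-L74F (0.00013) and 0.69 ± 0.11 in msi2-G252E (1.8e-05), and fell by 2.09 ± 0.13 in pla1-Y86L (2.6e-12) and by 0.79 ± 0.12 in pta1-T524M (1.2e-05). Between mutants alone its range was 3.55 on the log2 scale.

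SPNCRNA.724, annotated antisense to prp22 (an RNA helicase gene of the splicing machinery), had 80.9, 85.6 and 86.1 CPM in pfs2-V180F, 77.2, 72.7 and 77.9 CPM in cft1-L249Q, 70.03, 68.3 and 65.02 CPM in msi2-G252E and 17.1, 18.2 and 19.5 CPM in pla1-Y86L, against 24.2, 25.7 and 22.7 CPM in WT. It rose by 1.75 ± 0.08 in pfs2-V180F, 1.52 ± 0.08 in cft1-L249Q, 1.25 ± 0.08 in pfs2-E104A, 1.31 ± 0.08 in msi2-G252E and 0.61 ± 0.08 in ysh1-L74F, and fell by 0.48 ± 0.09 in pla1-Y86L (the highest of these 6 adjusted p was 8.3e-05). In pta1-T524M a value of -0.26 ± 0.09 was called, but not without its replicate 3 (-0.19) or WT replicate 1 (-0.25) or 2 (-0.21), nor when scaled by total counts alone (-0.22). The prp22 mRNA was lower at -0.71 ± 0.06 in pfs2-V180F and -0.40 ± 0.06 in pfs2-E104A, and likewise at -0.55 ± 0.06 in cft1-L249Q, -0.17 ± 0.06 in ysh1-L74F and -0.51 ± 0.06 in msi2-G252E, all called. In pta1-T524M, where the lncRNA was also lower, prp22 was called lower at -0.15 ± 0.06 (adjusted p = 0.035), and it stood at 0.11 ± 0.06 in pla1-Y86L (adjusted p = 0.073).

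The largest rise in msi2-G252E was that of SPNCRNA.1687, annotated antisense to vps10, which encodes a vacuolar sorting receptor. It had 115, 108 and 108 CPM in msi2-G252E, against 16.3, 14.6 and 18.9 CPM in WT, and no other mutant library was above 41.8 CPM. It rose by 2.56 ± 0.07 in msi2-G252E (adjusted p = 8.5e-19), and by 1.27 ± 0.07 in pfs2-V180F (8e-13) and 0.93 ± 0.07 in cft1-L249Q (4e-10). The values in the other 4 mutants lay between 0.29 and 0.46 and were called. Against the other mutants, msi2-G252E stood at 1.94 ± 0.04 (6.5e-21). The vps10 mRNA was lower in msi2-G252E at -0.29 ± 0.05 (adjusted p = 4.1e-05). It was called higher in cft1-L249Q at 0.13 ± 0.05 (0.039), and in pfs2-V180F it stood at -0.09 ± 0.05 with no call.

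SPNCRNA.1042 rose in msi2-G252E and in pla1-Y86L. It is antisense to pxr1 and had 74.03, 79.5 and 78.2 CPM in msi2-G252E and 58.5, 56.9 and 53.7 CPM in pla1-Y86L, against 19.6, 18.6 and 17.5 CPM in WT, with no overlap. Its log2 fold change was 1.89 ± 0.07 in msi2-G252E (adjusted p = 5e-16) and 1.53 ± 0.07 in pla1-Y86L (2.4e-14), while pta1-T524M stood at -0.52 ± 0.08 (2e-05). SPNCRNA.1494, a possible alternative untranslated region that overlaps ilv6 (a subunit gene of branched-chain amino acid synthesis) on the same strand and meu17 in antisense, had 52.2, 54.1 and 54.2 CPM in msi2-G252E, against 13.5, 11.7 and 13.9 CPM in WT. It rose there by 1.87 ± 0.08 (6.3e-15), while the mRNAs of ilv6 and meu17 were lower, at -0.58 ± 0.04 (6e-12) and -1.63 ± 0.24 (3.5e-06). SPNCRNA.322, which overlaps no coding gene, had 58.2, 53.4 and 53.4 CPM in msi2-G252E, against 15.5, 14.7 and 15.1 CPM in WT, and rose by 1.69 ± 0.10 (3.7e-12). In pta1-T524M it fell by 0.60 ± 0.12 (0.0004). SPNCRNA.716, antisense to the signal peptidase gene spc3 and to SPAC56F8.12, rose by 1.40 ± 0.11 in msi2-G252E (1.9e-10) and 1.09 ± 0.11 in pfs2-E104A (1.4e-07) and fell by 0.72 ± 0.12 in pla1-Y86L (1.5e-05) and by 0.66 ± 0.12 in pta1-T524M (0.00012). In pla1-Y86L, SPAC56F8.12 was higher by 1.20 ± 0.39 (0.0098), while spc3 was lower, at -0.15 ± 0.03 (0.00094).

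Besides omt3, the lncRNAs that fell most in msi2-G252E were SPNCRNA.1571, SPNCRNA.291 and SPNCRNA.1278. SPNCRNA.1571, antisense to the ubiquitin-conjugating enzyme gene ubc1, had 5.21, 5.39 and 5.31 CPM in msi2-G252E, against 11.7, 10.7 and 9.61 CPM in WT, and fell by 1.17 ± 0.10 (adjusted p = 1.1e-09). SPNCRNA.291, which overlaps no coding gene, had 5.33, 6.58 and 5.03 CPM in msi2-G252E, 22.7, 22.2 and 21.3 CPM in pta1-T524M and 21.4, 18.1 and 19.04 CPM in cft1-L249Q, against 10.9, 10.4 and 11.03 CPM in WT. The msi2-G252E libraries lay below WT and those of pta1-T524M and cft1-L249Q above it. The log2 fold change was -1.10 ± 0.12 in msi2-G252E (3.5e-08), 1.00 ± 0.10 in pta1-T524M (4.3e-08) and 0.72 ± 0.10 in cft1-L249Q (5.2e-06). SPNCRNA.1278 had 10.8, 10.3 and 8.999 CPM in msi2-G252E and 10.1, 7.74 and 10.3 CPM in pfs2-E104A, against 21.3, 18.9 and 16.9 CPM in WT. It fell by 1.09 ± 0.12 in msi2-G252E (5.7e-08) and by 1.05 ± 0.12 in pfs2-E104A (9.6e-07) and rose by 0.55 ± 0.11 in pta1-T524M (0.0003) and 0.45 ± 0.11 in pfs2-V180F (0.0014).

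**Figure D5:**
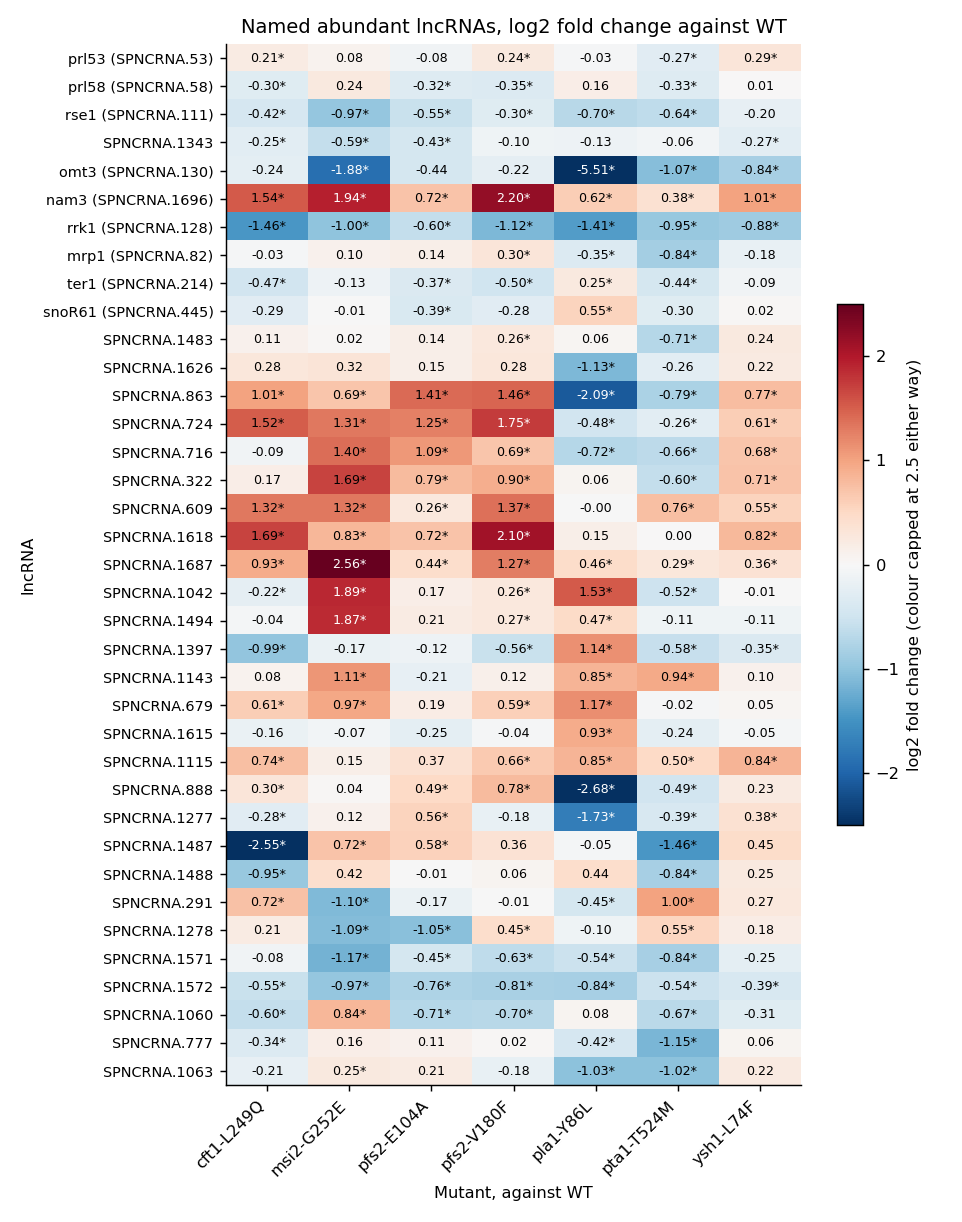
Log2 fold change against WT of 37 named abundant lncRNAs (rows) in the 7 mutants (columns), each cell with its value and an asterisk where the adjusted p was under 0.05; red is higher and blue lower than WT, with the colour capped at 2.5 either way. omt3 reads -5.51 in pla1-Y86L, SPNCRNA.1687 reads 2.56 in msi2-G252E, and SPNCRNA.863 is red in 5 mutants and blue in pla1-Y86L and pta1-T524M.

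SPNCRNA.1618 was among the largest rises of cft1-L249Q, pfs2-V180F and ysh1-L74F. It is a possible alternative untranslated region that overlaps his4 on the same strand. It had 43.97, 53.6 and 51.4 CPM in pfs2-V180F and 43.4, 37.2 and 39.1 CPM in cft1-L249Q, against 11.5, 11.6 and 10.7 CPM in WT, and no library of these mutants came near WT. It rose by 2.1 ± 0.07 in pfs2-V180F (adjusted p = 7.8e-17), 1.69 ± 0.07 in cft1-L249Q (1.6e-14) and 0.82 ± 0.07 in ysh1-L74F (5.5e-08), and stood at 0.00 ± 0.08 in pta1-T524M and 0.15 ± 0.07 in pla1-Y86L, neither called. The his4 mRNA, of histidine synthesis, was not called in pfs2-V180F (0.00 ± 0.04) or cft1-L249Q (-0.10 ± 0.04). SPNCRNA.609, which overlaps the chaperone gene hsp3104 on the same strand and SPAC11D3.14c in antisense, had 82.4, 86.4 and 70.2 CPM in pfs2-V180F, 84.8, 80.7 and 79.6 CPM in cft1-L249Q and 54.2, 50.2 and 51.4 CPM in pta1-T524M, against 32.5, 25.5 and 31.8 CPM in WT. It rose by 1.37 ± 0.08 in pfs2-V180F (1.1e-11), 1.32 ± 0.08 in cft1-L249Q (3.5e-11) and 0.76 ± 0.09 in pta1-T524M (3e-07). The hsp3104 mRNA was higher by 0.41 ± 0.08 in pfs2-V180F, 0.69 ± 0.08 in cft1-L249Q and 1.07 ± 0.08 in pta1-T524M. In msi2-G252E SPNCRNA.609 rose by 1.32 ± 0.08 (6.7e-12) while hsp3104 was lower, at -0.22 ± 0.09 (0.032). SPAC11D3.14c was lower in pta1-T524M (-0.17 ± 0.06) and cft1-L249Q (-0.50 ± 0.06), higher in msi2-G252E (0.56 ± 0.06) and not called in pfs2-V180F (-0.06 ± 0.06). SPNCRNA.1115, also a possible alternative untranslated region, rose by 0.84 ± 0.18 in ysh1-L74F (0.0046), with 31.3, 30.9 and 24.4 CPM against 15.2, 20.01 and 10.4 CPM in WT.

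SPNCRNA.1487 and SPNCRNA.1488 lie among the genes around mat1, the locus that sets the mating type: SPNCRNA.1487 is antisense to mag2 and next to SPBC23G7.10c, and SPNCRNA.1488 is antisense to SPBC23G7.13c. SPNCRNA.1487 had 3.29, 3.34 and 4.37 CPM in the h+ strain cft1-L249Q and 7.06, 7.67 and 7.21 CPM in pta1-T524M, against 20.2, 20.04 and 18.8 CPM in WT. It fell by 2.55 ± 0.24 in cft1-L249Q (adjusted p = 1.2e-08) and by 1.46 ± 0.20 in pta1-T524M (5.9e-06), and rose by 0.72 ± 0.17 in msi2-G252E (0.0011). SPNCRNA.1488 fell in the same 2 mutants, by 0.95 ± 0.21 in cft1-L249Q (0.0011) and by 0.84 ± 0.21 in pta1-T524M (0.0032), with 13.3, 13.04 and 13.6 CPM in cft1-L249Q and 13.6, 12.8 and 13.8 CPM in pta1-T524M, against 22.4, 23.04 and 24.7 CPM in WT. In cft1-L249Q the mutation and the mating type cannot be told apart. The strain pta1-T524M is h- like WT, and the cause of the falls was not tested in either mutant. A further call for SPNCRNA.1487, in pfs2-E104A (0.58 ± 0.18), was lost without replicate 2 of that mutant (0.37). The SPBC23G7.13c mRNA was lower in pta1-T524M (-1.69 ± 0.30, adjusted p = 0.00013) and not called in cft1-L249Q (-0.01 ± 0.25) or pla1-Y86L (-0.44 ± 0.26). It was called higher in msi2-G252E, pfs2-E104A, pfs2-V180F and ysh1-L74F. The mag2 mRNA was higher in msi2-G252E (1.00 ± 0.33, adjusted p = 0.014) and pla1-Y86L (1.99 ± 0.30, 4e-06) and was called in no other mutant.

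In pla1-Y86L, after omt3, the lowest were SPNCRNA.888, SPNCRNA.863 and SPNCRNA.1277. SPNCRNA.888, a possible alternative untranslated region antisense to end4 and over SPAC688.12c, had 2.18, 2.91 and 1.57 CPM in pla1-Y86L and 22.5, 24.8 and 23.7 CPM in pfs2-V180F, against 13.4, 13.1 and 13.4 CPM in WT. It fell by 2.68 ± 0.13 in pla1-Y86L (adjusted p = 3.2e-14) and rose by 0.78 ± 0.09 in pfs2-V180F (2.9e-07), while end4 and SPAC688.12c mRNAs were at 0.24 ± 0.04 and 0.27 ± 0.05 in pla1-Y86L, both called higher. SPNCRNA.1277, antisense to the vacuolar sorting gene pep3, had 3.96, 4.04 and 2.85 CPM in pla1-Y86L, against 10.3, 11.9 and 11.7 CPM in WT, and fell by 1.73 ± 0.12 (4.7e-11). The largest rises there, after SPNCRNA.1042, were those of SPNCRNA.679, SPNCRNA.1397 and SPNCRNA.1615. SPNCRNA.1397, antisense to num1, had 37.7, 36.7 and 29.9 CPM in pla1-Y86L, against 14.5, 14.99 and 15.3 CPM in WT, and rose by 1.14 ± 0.08 (2.8e-11). The num1 mRNA, for a cortical anchor protein, was higher by 1.16 ± 0.11 (5.1e-09). In cft1-L249Q SPNCRNA.1397 fell by 0.99 ± 0.09 (1.4e-08), with num1 at 0.10 ± 0.12 and not called. SPNCRNA.679 rose by 1.17 ± 0.09 (8e-11) and SPNCRNA.1615 by 0.93 ± 0.10 (2.9e-08) in pla1-Y86L.

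In pta1-T524M the further falls were those of SPNCRNA.777 and SPNCRNA.1063. SPNCRNA.777, antisense to pcs2, had 6.67, 7.71 and 6.57 CPM in pta1-T524M, against 15.7, 13.1 and 16.4 CPM in WT, and fell by 1.15 ± 0.11 (adjusted p = 2.2e-08). SPNCRNA.1063 is a possible alternative untranslated region that overlaps no coding gene. It had 8.32, 7.30 and 9.62 CPM in pta1-T524M and 9.62, 8.60 and 7.58 CPM in pla1-Y86L, against 17.3, 17.1 and 15.8 CPM in WT. It fell by 1.02 ± 0.11 in pta1-T524M (1.5e-07) and by 1.03 ± 0.11 in pla1-Y86L (3.1e-08). The rises in pta1-T524M, after SPNCRNA.291, were led by SPNCRNA.1143, antisense to gud1 and cox19, with 28.8, 24.9 and 28.5 CPM against 15.1, 13.2 and 13.5 CPM in WT and a log2 fold change of 0.94 ± 0.08 (5e-09). The gud1 mRNA, for a guanine deaminase, was lower there at -0.47 ± 0.07 (1.3e-05), and lower in pla1-Y86L at -1.03 ± 0.07, where SPNCRNA.1143 rose by 0.85 ± 0.08. In msi2-G252E, where SPNCRNA.1143 rose by 1.11 ± 0.08, gud1 stood at 0.07 ± 0.07 with no call. The cox19 mRNA was higher in msi2-G252E (0.25 ± 0.07) and pla1-Y86L (0.23 ± 0.07) and not called in pta1-T524M (0.08 ± 0.07). SPNCRNA.1601, a possible alternative untranslated region, rose by 0.73 ± 0.07 (7.2e-08) in pta1-T524M. There psu2, the gene it is antisense to, was lower at -1.95 ± 0.26. The psu2 mRNA was also lower in pfs2-V180F (-0.90 ± 0.23), where SPNCRNA.1601 was not called.

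A few lncRNAs were called in 1 direction in every mutant. SPNCRNA.1572, which overlaps gsf1 on the same strand, fell by 0.97 ± 0.10 in msi2-G252E, by 0.84 ± 0.10 in pla1-Y86L, by 0.81 ± 0.10 in pfs2-V180F and by 0.76 ± 0.10 in pfs2-E104A (the highest of these adjusted p was 3.2e-06). It had 10.9, 9.55 and 9.69 CPM in msi2-G252E, against 17.5, 18.6 and 16.3 CPM in WT. In ysh1-L74F its call, at -0.39 ± 0.09, was lost without replicate 2 of the mutant (-0.33). SPNCRNA.815, antisense to mug68, had 34.7, 37.1 and 34.9 CPM in pla1-Y86L, against 19.6, 19.8 and 19.5 CPM in WT, and rose by 0.78 ± 0.06 there (4.4e-10) and by 0.59 ± 0.06 in msi2-G252E. SPNCRNA.688 rose most in pfs2-V180F, by 1.12 ± 0.06 (3e-12), SPNCRNA.1476 (a possible alternative untranslated region) in msi2-G252E, by 1.04 ± 0.07 (3e-11), and SPNCRNA.1027 in pfs2-V180F, by 0.77 ± 0.07 (3.7e-09). Their calls in pta1-T524M were each lost without replicate 2 of that mutant (0.19 for SPNCRNA.815, 0.17 for SPNCRNA.688, 0.20 for SPNCRNA.1476 and 0.18 for SPNCRNA.1027). That of SPNCRNA.688 was also lost without WT replicate 2 (0.12) or replicate 1 of pta1-T524M (0.15), and that of SPNCRNA.1476 without WT replicate 1 (0.22) or replicate 3 of pta1-T524M (0.21). SPNCRNA.1663, by contrast, had no call against WT, with values between -0.13 and 0.22, and neither had SPNCRNA.1568, between -0.12 and 0.09.

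Since most of the abundant lncRNAs lie antisense to coding genes, the calls of each such pair were counted side by side. There were 221 pairs of a lncRNA and a tested antisense gene, formed by 172 lncRNAs. In pla1-Y86L the lncRNA was lower in 95 pairs, and the coding partner was higher in 29 of these and lower in 29, where 32.2% of all genes were higher and 32.4% lower. Where the lncRNA was higher in pla1-Y86L, in 58 pairs, the partner was higher in 12 and lower in 15. In msi2-G252E 113 pairs had a higher lncRNA, with the partner higher in 36 and lower in 29 (29.3% and 29.5% of all genes), and 28 a lower one, with the partner higher in 7 and lower in 14. In pfs2-V180F 100 pairs had a higher lncRNA, with the partner higher in 24 and lower in 28 (24.1% and 24%), and 33 a lower one, with the partner higher in 12 and lower in 6. In cft1-L249Q 64 pairs had a higher lncRNA, with the partner higher in 12 and lower in 18 (22.3% and 21%), and 50 had a lower lncRNA, with the partner higher in 17 and lower in 10. In pta1-T524M 44 pairs had a higher lncRNA, with the partner higher in 9 and lower in 9 (18.7% and 19.8%), and 69 a lower one, with the partner higher in 16 and lower in 16. In pfs2-E104A 63 pairs had a higher lncRNA, with the partner higher in 11 and lower in 14 (18.1% and 16.1%), and 31 a lower one, with the partner higher in 6 and lower in 4. In ysh1-L74F 51 pairs had a higher lncRNA, with the partner higher in 2 and lower in 5 (7.57% and 6.84%), and 4 a lower one, with no partner called. Many of these shares lay near those of all genes, and no direction of the partners is read from them.

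The overlap classes themselves gave the following counts. Of the 156 antisense-only lncRNAs, 76 were higher and 24 lower in msi2-G252E (29.3% and 29.5% of all genes), 41 higher and 67 lower in pla1-Y86L (32.2% and 32.4%), and 29 higher and 55 lower in pta1-T524M (18.7% and 19.8%). Of the 42 that overlap no coding gene, 11 were higher and 16 lower in msi2-G252E, 10 higher and 15 lower in pla1-Y86L, and 4 higher and 20 lower in pta1-T524M. Compared with the antisense-only class, both shares lay nearer to those of all genes in msi2-G252E. In pla1-Y86L only the share called lower did, and the share called higher lay farther away. In pta1-T524M both shares lay farther away. Of the 34 possible alternative untranslated regions, 13 were higher and 6 lower in msi2-G252E and 10 higher and 13 lower in pla1-Y86L. The differences between classes were not tested.

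Genes of nuclear RNA surveillance, whose products degrade many lncRNAs, were counted in the same comparisons. The list of 26 held exosome subunits, cofactors, the Mmi1 and MTREC factors and 2 exonuclease genes, dhp1 and exo2, the latter of a cytoplasmic enzyme. Of these 26 genes, 25 were tested. In pla1-Y86L 11 were higher and 4 lower (32.2% and 32.4% of all genes), led by the exosome cofactor gene mpp6 at 0.61 and the MTREC gene red1 at 0.38. In pfs2-V180F 1 was higher and 12 lower (24.1% and 24%), in msi2-G252E 4 and 9 (29.3% and 29.5%), in pfs2-E104A 1 and 8 (18.1% and 16.1%), in pta1-T524M 5 and 4 (18.7% and 19.8%), in cft1-L249Q 1 and 7 (22.3% and 21%), and in ysh1-L74F 1 and 2 (7.57% and 6.84%). In msi2-G252E mpp6 (0.60) and red1 (0.24) were called higher too. Elsewhere mpp6 was not called, and red1 was called lower in cft1-L249Q, pfs2-E104A and pta1-T524M. The median over the list was 0.05 in pla1-Y86L and -0.12 in pfs2-V180F. Their part in the lncRNA changes was not tested.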

How the data were processed

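The authors deposited whole-number read counts of 24 polyA+ libraries in 1 table, and a table for each of their own 7 comparisons with WT. Per the file headers, such a table gives a log2 fold change, its error, a p-value, an adjusted p-value and an average signal (baseMean). Reads come from a directional kit, per the labels' protocols. HISAT2 2.1.0, SAMtools, HTSeq 0.10.0, DESeq2 and build ASM294v2 are named in the submitters' processing notes. The strand setting and annotation release are not given in the sources used here. The reference at hand is of another assembly, so it served for names, products and neighbours only, and no coordinates or sequences are given.

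CPM is a count over the library total. Counts were tested with edgeR 4.0.16 in R 4.3.3: filterByExpr (minimum count 10, 6287 genes kept, all 223 lncRNAs among them), TMM scaling and a quasi-likelihood fit of 1 mean per group over all 24 libraries (16 residual degrees of freedom). Contrasts were each mutant with WT, each mutant with the other 6 by their mean, and all 7 mutants together. Benjamini-Hochberg adjustment ran over every gene tested, and p-values measure the spread between replicates as labelled. Every pair of replicates differed by more than counting noise (chi-square over degrees of freedom between 2.6 and 23.8 in 24 pairs, on genes of 20 or more reads), so each library counts as 1 sample.

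The members, lists and tests were chosen with earlier results of these data known. The text names the 12 highest in WT, the 4 largest called changes per mutant and direction whose libraries do not overlap WT, the 2 largest per direction against the other mutants, up to 8 called the same way in every mutant, up to 6 called in none, the 6 with the widest opposite calls, and those with a symbol; some were left out for length. By the authors' deposited tables, the calls among the 223, higher and lower, were 61 and 57 in cft1-L249Q, 102 and 46 in msi2-G252E, 52 and 48 in pfs2-E104A, 91 and 43 in pfs2-V180F, 57 and 91 in pla1-Y86L, 42 and 86 in pta1-T524M, and 48 and 15 in ysh1-L74F. The authors' calls over all genes were not counted, so these have no background beside them. Alternatives were RLE scaling, total counts only, no filter, 2 groups per fit, DESeq2 1.42.0, the replicate number as a block, leaving out each library, a WT level of 20 CPM and the excluded lncRNAs put back.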

Additional observations from a re-analysis of the deposited data

How the results depend on the processing

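The shares of lncRNAs called against WT and against the other mutants, and the medians against WT, kept their direction under RLE scaling, no filter on low counts and the excluded lncRNAs put back, with each count within 1.5 times its main value. So did the shares and medians against WT under fits to 2 groups, DESeq2 and, chosen after seeing the data, without the possible alternative untranslated regions; these were not run against the other mutants. The summed shares kept their direction with the excluded lncRNAs put back and over counts outside SPNCRNA genes. Calls over all genes are not given for total counts alone, so the shares called under it stand without a background. Scaled by total counts alone, the share called higher was 43.9% in cft1-L249Q and 35.9% in ysh1-L74F, the share called lower was 12.6% in pfs2-V180F, 13.0% in cft1-L249Q and 1.79% in ysh1-L74F, and the medians were 0.31 in msi2-G252E, 0.17 in pfs2-V180F, 0.17 in ysh1-L74F, 0.15 in cft1-L249Q, 0.053 in pfs2-E104A, -0.013 in pla1-Y86L and -0.054 in pta1-T524M. With a WT level of 20 CPM, which leaves 79 lncRNAs, the share called lower was 12.7% in pfs2-V180F, the share called higher was 10.1% in pla1-Y86L, and the medians were 0.041 in pfs2-E104A, 0.079 in pfs2-V180F and -0.18 in pla1-Y86L; against the other mutants the share lower was 5.06% in pfs2-V180F and the share higher 15.2% in pla1-Y86L; and the ratio of the summed share to WT was 1.22 in msi2-G252E and 0.93 in pla1-Y86L. Without SPNCRNA.53, a choice made after seeing the data, that ratio was 1.31 in msi2-G252E, 1.10 in pfs2-E104A and 1.14 in ysh1-L74F.

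Leaving out each library in turn, the medians ran from 0.15 to 0.17 in msi2-G252E and from -0.12 to -0.080 in pta1-T524M, the share called lower in pfs2-V180F from 12.1% to 16.1%, the share called higher in ysh1-L74F from 12.1% to 21.5% and lower from 2.24% to 5.83%, and the summed ratio in pfs2-E104A from 1.05 to 1.07. Apart from the scaling and the smaller numbers of lncRNAs or libraries, the cause was not tested. Of 413 values of named lncRNAs against WT, which include values not called in the main fit, none turned its direction while called. Calls were lost in 19 by total counts alone and in 11 with 2 groups per fit, and in 102 of 2478 fits without a library. In the other direction, 40 values were graded stronger by total counts alone, 14 with 2 groups per fit and 44 in fits without a library.

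With the replicate number as a block, 27.8% were called higher in cft1-L249Q and 5.38% lower in ysh1-L74F, and no count moved by over 1.5 times. Same-numbered mutant and WT libraries correlated in their deviations at between -0.10 and 0.21, not above 0.1 for every number in any mutant, so the numbers were not taken to pair libraries. At these depths 10 CPM stands for as few as 194 reads in a library, and the omt3 level in pla1-Y86L rests on 64 reads in all.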
